A study of Mus musculus with 2 samples.

Results

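Wnt signalling reaches DNA through a small family of HMG-box transcription factors, the TCF/LEF factors, and the genes for these factors are described here in prostate tumours of DoubleTg and TripleTg mice. The members are Lef1, Tcf7, Tcf7l1 and Tcf7l2, the 4 TCF/LEF genes, and Tcf4, a gene of another family whose symbol is easily taken for one of them. They were chosen by symbol, as 5 of the 28000 features counted in both libraries. Each genotype had 1 single-cell RNA-seq library, made with 3′ chemistry from dissociated prostate tissue that the labels call prostatic adenocarcinoma for DoubleTg and prostatic carcinoma for TripleTg. The DoubleTg genotype was hHGFtg:H11 hMET/+:PB Cre4, and the TripleTg genotype had the same alleles and Ctnnb1 L(Ex3)/+ in addition. Both therefore carried a human HGF transgene made throughout the body and a human MET transgene kept silent by a STOP cassette until Cre removes it. In both, Cre came from the prostate-epithelial probasin promoter (PB Cre4), and in TripleTg mice alone it also removed exon 3 of Ctnnb1, which leaves a β-catenin protein that is not degraded. The comparison of the libraries asks what stabilised β-catenin adds to tumours driven by HGF and MET. Per the study's methods the mice had a mixed background, C57BL/6 with C3H SCID, which bears on lymphocytes because SCID mice lack most of them, and the age and number of the animals behind each library are not given in the sources used here.

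In cells without a Wnt signal, TCF/LEF factors sit on DNA with Groucho co-repressors (the Tle genes) and keep target genes off. β-catenin that escapes degradation enters the nucleus, binds the same factors and turns those targets on, Axin2 among them, and Lef1 and Tcf7 are themselves known targets of the pathway. Tcf7l1 is known mainly as a repressor, Tcf7l2 can act either way and is the main factor of many epithelia, and Lef1 and Tcf7 are also known from T cell development. Tcf4 makes an E protein of the basic helix-loop-helix family that does not bind β-catenin, and the confusion arises because the protein made from Tcf7l2 is often called TCF4.

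On the GRCm38 build Lef1 lies at chr3:131110471-131224356 on the plus strand and Tcf7 at chr11:52252371-52283014 on the minus strand. Tcf7l1 lies at chr6:72626378-72789254 on the minus strand and Tcf7l2 at chr19:55741820-55933654 on the plus strand. Start-site windows of the 4 TCF/LEF genes, from 250 bases before to 50 bases after each annotated start, were read from RefSeq for GRCm38.p6 and searched for the 6 letters TCAAAG, the core of the sequence TCF/LEF proteins bind, and for their reverse complement CTTTGA. Of 32851 windows over all genes, 5257 (16.0%) held the letters on 1 strand or the other. Among the 9 windows of the 4 genes 1 held them, a window of Lef1 with TCAAAG beginning 180 and 120 bases before the start. Windows are shown for the TCF/LEF genes whose levels differed most between the libraries, with TCAAAG in capitals, 5′ to 3′ on the strand of the gene. The Lef1 window at chr3:131156044-131156343, an internal start, is the one with the letters, and the Lef1 window at chr3:131110047-131110346 is the first start of the gene. The Tcf7 window at chr11:52282965-52283264 and the Tcf7l1 window at chr6:72788996-72789295 are both on the minus strand.
Lef1 internal start: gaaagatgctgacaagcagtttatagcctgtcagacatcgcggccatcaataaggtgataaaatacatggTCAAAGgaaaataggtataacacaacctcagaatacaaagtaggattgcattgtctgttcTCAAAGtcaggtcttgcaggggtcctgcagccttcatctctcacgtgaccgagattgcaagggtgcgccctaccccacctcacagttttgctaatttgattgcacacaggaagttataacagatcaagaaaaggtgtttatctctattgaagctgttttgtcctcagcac
Lef1 first start: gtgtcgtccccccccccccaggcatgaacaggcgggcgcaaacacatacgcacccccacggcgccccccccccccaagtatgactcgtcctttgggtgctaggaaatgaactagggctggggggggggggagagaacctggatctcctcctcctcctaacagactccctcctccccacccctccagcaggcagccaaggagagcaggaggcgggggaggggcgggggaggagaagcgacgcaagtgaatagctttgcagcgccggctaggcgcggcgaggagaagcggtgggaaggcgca
Tcf7: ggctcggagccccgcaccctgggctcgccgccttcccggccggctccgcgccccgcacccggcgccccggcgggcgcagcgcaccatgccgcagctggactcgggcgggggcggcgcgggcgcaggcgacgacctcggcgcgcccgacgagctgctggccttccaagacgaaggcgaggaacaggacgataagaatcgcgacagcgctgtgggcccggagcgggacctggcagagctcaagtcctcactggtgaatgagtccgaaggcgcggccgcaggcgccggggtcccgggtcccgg
Tcf7l1: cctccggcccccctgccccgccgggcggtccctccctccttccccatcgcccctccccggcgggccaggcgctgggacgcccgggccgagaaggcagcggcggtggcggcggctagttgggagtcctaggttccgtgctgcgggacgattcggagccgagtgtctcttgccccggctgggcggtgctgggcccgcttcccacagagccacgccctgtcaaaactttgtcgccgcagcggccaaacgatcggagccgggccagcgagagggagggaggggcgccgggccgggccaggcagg
The first Lef1 window (67.3% G and C), the Tcf7 window (76.3%) and the Tcf7l1 window (75.3%) are rich in G and C, whereas the internal Lef1 window is not (43.7%). A match to 6 letters describes a sequence and not a bound site, 3′ counts do not show which start was used, and no binding was measured here.

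After the limits on genes and mitochondrial RNA, 10598 DoubleTg cells with 256880958 unique molecular identifiers (UMIs, each 1 captured RNA molecule) and 9492 TripleTg cells with 229655259 UMIs were analysed. Classes of cells were rebuilt from clusters by marker genes, with the 5 members kept out of the clustering, and are called epithelial-like, endothelial-like and so on. Epithelial-like cells made up 67.4% of the DoubleTg and 69.05% of the TripleTg cells, and 127 and 567 of them had the secretory genes of the seminal vesicle, an organ other than the labelled prostate. Epcam, which marks epithelium, was also counted at 534 and 312.4 CPM (UMIs per 1000000 UMIs of a class) in the endothelial-like cells, against 2357 and 1593 CPM in the epithelial-like cells, so epithelial RNA was counted in another class in both libraries. There were 30 barcodes common to both libraries. With 1 library per genotype no difference was tested, library and genotype cannot be told apart, and every interval given is a 95% interval that covers counting error only. Levels are CPM of the UMIs of a class, 3′ counts being 1 per molecule and not scaled by length. A log2 ratio is TripleTg over DoubleTg, and a gene is counted as higher or lower at a ratio past 1 in either direction, provided that it reached 5 CPM in 1 library or the other.

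In epithelial-like cells the TCF/LEF genes differed between the libraries in opposite directions. Lef1 and Tcf7, which many tissues switch on with Wnt signalling, and the E protein gene Tcf4 were higher in TripleTg. Tcf7l1 was lower and Tcf7l2 was nearly level. Of the 5 members, all of which passed the minimum, 3 were higher, against 9.59% of 9106 genes, and 1 was lower, against 12.0%. The median of all genes was -0.125.

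Lef1 was close to absent from DoubleTg epithelial-like cells, with 43 UMIs in 7143 cells, or 0.187 CPM (0.136 to 0.252). The TripleTg cells held 1388 Lef1 UMIs in 6554 cells, or 6.85 CPM (6.50 to 7.22). The log2 ratio of these CPM values was 5.19 (4.76 to 5.67). No background was taken off, and the DoubleTg level was not above the 0.387 CPM (0.0469 to 1.40) of the DoubleTg macrophage-like cells, so the size of this ratio, and of the luminal-like one, is not an exact fold of expression. Of the 43 DoubleTg UMIs, 10 lay in a single cluster of 50 cells led by Foxi1 and Atp6v1g3, 13 in basal-like and 7 in seminal vesicle-like cells. The low DoubleTg level was lower still in the luminal-like cells, at 0.0658 CPM from 13 UMIs. Weighting every cluster equally gave the cluster of 50 cells more room, and the ratio was then 2.21.

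Tcf7 had 1140 UMIs in the DoubleTg cells, 4.96 CPM (4.68 to 5.26), and 5345 in the TripleTg cells, 26.4 CPM (25.7 to 27.1). Its log2 ratio of 2.41 (2.32 to 2.50) corresponded to 5.31-fold. Unlike Lef1, it was thus already present in epithelium that lacked the stabilised β-catenin allele. Tcf7l1 went the other way, from 1692 UMIs and 7.37 CPM (7.02 to 7.73) in DoubleTg to 438 UMIs and 2.16 CPM (1.96 to 2.37) in TripleTg. Its log2 ratio was -1.77 (-1.92 to -1.62), which is 3.41-fold lower in CPM with no background taken off. The TripleTg level was above the 0.590 CPM (0.122 to 1.73) of the TripleTg macrophage-like cells.

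Tcf7l2 was the TCF/LEF gene with the most UMIs in epithelial-like cells of both libraries. It had 18147 UMIs at 79.0 CPM (77.9 to 80.2) in DoubleTg and 19160 UMIs at 94.6 CPM (93.2 to 95.9) in TripleTg. The log2 ratio of 0.26 (0.23 to 0.29) was 1.2-fold, far smaller than those of the other members. Tcf4 had 4614 UMIs at 20.1 CPM (19.5 to 20.7) in DoubleTg and 16239 UMIs at 80.2 CPM (78.9 to 81.4) in TripleTg, with a log2 ratio of 2.0 (1.95 to 2.04). The member that differed by 3.99-fold under the symbol Tcf4 was therefore the E protein gene, and the gene whose protein is often called TCF4 differed by 1.2-fold.

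Counted as a composition over all epithelial-like cells, the UMIs of the 4 TCF/LEF genes moved towards Lef1 and Tcf7 without displacing Tcf7l2 as the main one. Lef1 and Tcf7 together were 5.63% of the UMIs of the 4 genes in DoubleTg epithelial-like cells and 25.6% in TripleTg. Tcf7l1 went from 8.05% to 1.66% and Tcf7l2 from 86.3% to 72.8%. In the luminal-like cells, which make the secretions of the gland, Lef1 and Tcf7 were 4.0% of 18683 UMIs in DoubleTg and 26.0% of 18162 UMIs in TripleTg. In the basal-like cells, the layer beneath, they were 17.1% and 14.8%, and Tcf7l2 was 71.6% and 82.4%. That share was lower in TripleTg although the CPM of Lef1 and Tcf7 were higher in its basal-like cells, since Tcf7l2, the largest part of the sum, went from 58.9 to 128.7 CPM. In seminal vesicle-like cells Lef1 and Tcf7 were 33.8% of 145 UMIs in DoubleTg and 17.4% of 875 UMIs in TripleTg. In the remaining epithelial-like cells they were 38.0% of 50 UMIs and 34.7% of 3952 UMIs.

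**Figure D1:**
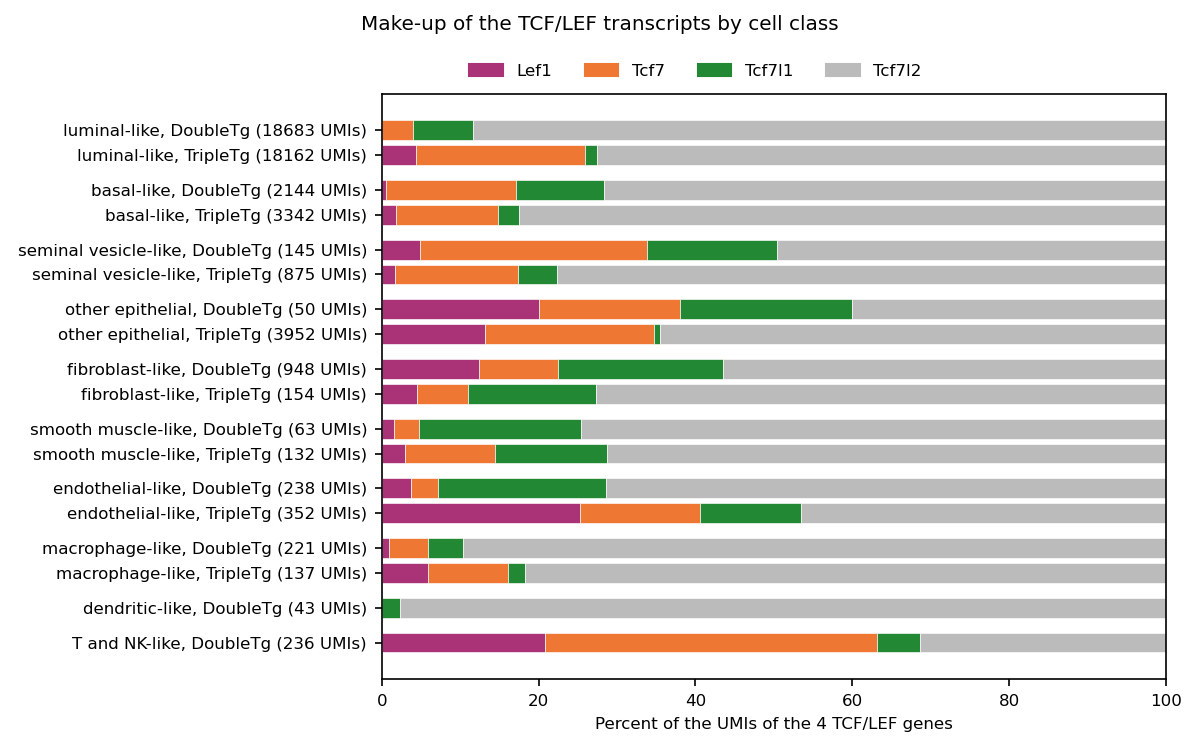
Share of Lef1, Tcf7, Tcf7l1 and Tcf7l2 in the UMIs of these 4 genes, in percent, as stacked bars for each cell class of each library with at least 50 cells. In luminal-like cells Lef1 and Tcf7 take 4.0% in DoubleTg and 26.0% in TripleTg, and in DoubleTg T and NK-like cells 63.1%.

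Single cells showed the same picture at equal depth. Each cell was thinned to 5000 UMIs, which left 6685 DoubleTg and 6291 TripleTg epithelial-like cells. Lef1 was seen in 0.209% of the DoubleTg and 3.39% of the TripleTg cells, against 0% (exact upper bound 1.16%) and 0.491% (upper bound 1.76%) of the macrophage-like cells, which should lack it. The DoubleTg share therefore cannot be told from background, and the TripleTg share is above it. Before thinning, the median depth was 26341 and 25722 UMIs in epithelial-like cells and 8529 and 9805 UMIs in macrophage-like cells. Tcf7 was seen in 3.02% and 12.2% of the epithelial-like cells, against 0.952% and 0.737% of the macrophage-like cells. Tcf7l1 was seen in 3.93% and 1.34%, Tcf7l2 in 30.6% and 35.4%, and Tcf4 in 10.1% and 30.2%. The Tcf7l1 share in TripleTg epithelium, 1.34%, lay within the exact upper bound of 1.36% of the TripleTg macrophage-like cells, where 0.246% had it, so by the share of cells, unlike by CPM, it cannot be told from background.

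Cells with Lef1 or Tcf7 numbered 216 (3.23%) in DoubleTg and 939 (14.9%) in TripleTg. Among them, 46 DoubleTg and 343 TripleTg cells also had a Tcf7l2 UMI, and 12 and 11 had a Tcf7l1 UMI. The low Tcf7l1 counts show no separation of the genes. Tcf7l1 was seen in 5.45% and 1.30% of the cells with Tcf7, against 3.89% and 1.34% of those without. Any of the 4 genes was seen in 36.0% and 45.6% of the cells, so in more than every other cell none was caught at this depth. Without thinning, most TripleTg cells with Lef1 had a single UMI of it (703 cells), and 161 had 2 and 101 had 3 or more.

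Because Lef1 and Tcf7 are T cell genes, the T cell and leukocyte genes Ptprc, Cd3d, Cd3e and Cd3g were counted in the same epithelial-like cells. In TripleTg 1.41% of the cells with Lef1 had a UMI of any of these genes and 1.56% of those without. For Tcf7 the shares were 1.56% with and 1.56% without. T cell RNA was therefore no more frequent in the cells that held Lef1 or Tcf7. In DoubleTg the shares were 0.990% of the cells with Tcf7 and 1.14% of those without.

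Within TripleTg epithelium the cells with Lef1 were richer in Tcf7 and in Wnt target RNA. Of the 213 cells with Lef1, 20.7% (15.4 to 26.7) also had Tcf7, against 11.9% of the cells without. Axin2, a feedback inhibitor and a widely used Wnt target, was seen in 46.0% of the cells with Lef1 and 25.7% of those without. Tcf4 was seen in 41.8% and 29.8%. Tcf7l2 did not follow this pattern, with 35.2% and 35.4%. Within the luminal-like cells alone, Tcf7 was seen in 21.95% (14.99 to 30.3) with Lef1 and 14.2% (13.1 to 15.3) without, intervals that overlap. Axin2 was seen there in 42.3% (33.4 to 51.5) with Lef1 and 27.8% without, but Tcf4 in 37.4% (28.8 to 46.6) and 33.5%, a difference within counting error.

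The 770 TripleTg cells with Tcf7 had Axin2 in 32.5% and Tcf4 in 37.3%, against 25.5% and 29.2% of the cells without Tcf7. Within the luminal-like cells alone these shares were closer, with Axin2 in 30.5% (26.7 to 34.5) and 27.9% and Tcf4 in 36.9% (32.9 to 41.0) and 33.1%, so part of the gap lay between classes. The 1900 cells with Tcf4 had Axin2 in 33.8% and Tcf7l2 in 38.7%, against 23.2% and 33.9% without, and in luminal-like cells Axin2 was in 33.1% and 25.9% but Tcf7l2 in 40.7% (38.1 to 43.4) and 38.1% (36.3 to 40.0), within counting error. In DoubleTg epithelium the 263 cells with Tcf7l1 had 0 Axin2 UMIs, with an exact upper bound of 1.39% of cells, against 1.59% of the cells without Tcf7l1. In luminal-like cells this was 0 of 163, with an upper bound of 2.24%, against 0.816%, so no difference was detectable at this depth. The 263 cells held the human MET transgene, hMETtg, in 38.4%, against 51.7% of the cells without Tcf7l1, and Tcf4 in 16.7%, against 9.83%. All of these are shares of cells drawn from 1 library each and describe that library.

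The luminal-like cells had larger Lef1, Tcf7 and Tcf4 ratios than all epithelial-like cells together. Their TripleTg Lef1 level was not higher, at 6.53 CPM against 6.85 CPM. Among the luminal-like cells 3 members were higher, against 11.6% of 9066 genes, and 1 was lower, against 11.5%, with a median of all genes of 0.03. Lef1 had 13 UMIs in 5093 DoubleTg cells and 791 in 4066 TripleTg cells, 0.0658 and 6.53 CPM, a log2 ratio of 6.63 (5.85 to 7.55). Tcf7 was at 3.72 CPM (3.454 to 3.997) and 32.4 CPM (31.4 to 33.4), a log2 ratio of 3.12 (3.01 to 3.24). The Tcf7 ratio of the luminal-like cells was thus above that of all epithelial-like cells.

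In the same luminal-like cells Tcf7l1 was at 7.16 and 2.23 CPM, with a log2 ratio of -1.69 (-1.88 to -1.5). Tcf7l2 was at 83.6 and 108.7 CPM, 0.38 (0.35 to 0.41). Tcf4 was at 18.7 and 94.3 CPM, 2.34 (2.28 to 2.39). The luminal-like classes were made of different clusters in the libraries, and hMETtg differed between them as well, at 493.1 CPM in DoubleTg and 23.4 CPM in TripleTg luminal-like cells. The part of these differences in the members' ratios was not tested. Among epithelial-like cells with an hMETtg UMI the log2 ratios were 6.62 for Lef1, 2.53 for Tcf7, -2.01 for Tcf7l1, 0.14 for Tcf7l2 and 1.84 for Tcf4. Asking for 1 UMI makes neither the hMETtg levels nor the clusters of the libraries equal, so these values do not decide that part. A DoubleTg luminal-like cluster led by Aldh1a3, Msln and Psca also had Ly6d, a gene of the plasmacytoid dendritic list, among its top 10 genes, and leaving it out gave -1.95 for Tcf7l1 and 0.39 for Tcf7l2.

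Basal-like cells, 1873 in DoubleTg and 921 in TripleTg, shared the lower Tcf7l1 with the luminal-like cells but differed from them in Tcf7l2. Of the 4 members that passed the minimum there, Tcf7l2 was higher, against 14.2% of 8985 genes, and Tcf7l1 lower, against 12.5%. Tcf7l2 was at 58.9 and 128.7 CPM, a log2 ratio of 1.13 (1.04 to 1.22). Tcf7l1 was at 9.24 and 4.25 CPM, -1.12 (-1.48 to -0.77). Basal-like cells thus had the larger Tcf7l2 ratio, while luminal-like cells had the larger Tcf7 ratio.

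Tcf7 was already at 13.6 CPM in DoubleTg basal-like cells, above the 3.72 CPM of the luminal-like cells, and at 20.4 CPM in TripleTg, a log2 ratio of 0.59 (0.38 to 0.79). Tcf4 was at 30.8 and 60.7 CPM, 0.98 (0.85 to 1.11), just short of the threshold. Lef1 stayed under the minimum in both libraries, at 0.499 CPM from 13 UMIs and 2.80 CPM from 60 UMIs. The order of luminal-like and basal-like cells for Tcf7 therefore differed between the libraries, since TripleTg luminal-like cells were at 32.4 CPM.

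The seminal vesicle-like cells did not share the Lef1, Tcf7 and Tcf4 difference. Lef1 had 7 UMIs in DoubleTg and 15 in TripleTg there, 1.34 and 0.546 CPM. Tcf7 was at 8.02 and 4.99 CPM, a log2 ratio of -0.69 (-1.19 to -0.15), and Tcf4 at 18.5 and 15.6 CPM, -0.25 (-0.57 to 0.08). The median of all genes in this class was -0.465, and relative to it Tcf7 was at -0.22 and Tcf4 at 0.21. Tcf7l1 was at 4.58 and 1.57 CPM and Tcf7l2 at 13.7 and 24.8 CPM. Axin2 was at 3.44 CPM in DoubleTg and 9.25 CPM in TripleTg seminal vesicle-like cells, a log2 ratio of 1.43 (0.74 to 2.21), so this Wnt target was higher in TripleTg here too, at a level below the 78.5 CPM of the TripleTg luminal-like cells.

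**Figure D2:**
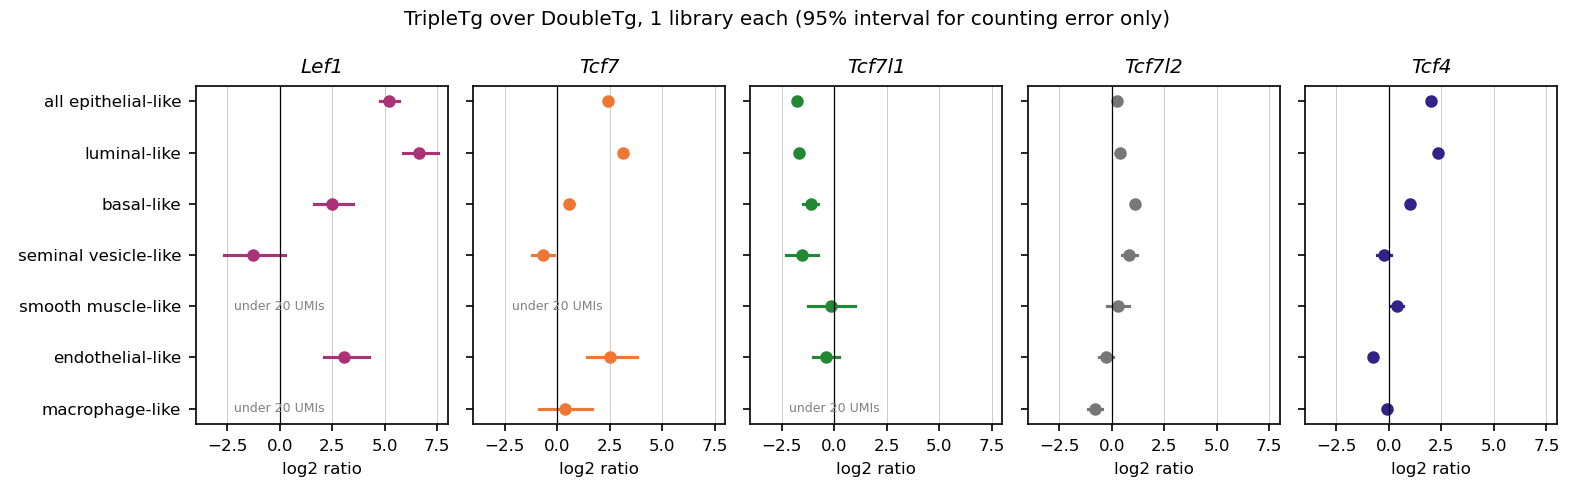
Log2 ratio of TripleTg over DoubleTg for each member in 7 cell classes, with 95% conditional binomial intervals that cover counting error only. Lef1 and Tcf7 lie above 2 in luminal-like and endothelial-like cells, Tcf7l1 lies below -1 in luminal-like and basal-like cells, and members with too few UMIs in a class are marked as such.

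DoubleTg luminal-like clusters differed in which of Tcf7 and Tcf7l1 was the higher, without a general trade between the genes. A cluster led by the secretory genes Sbp, Sbpl and Spink1 had Tcf7 at 0.11 CPM and Tcf7l1 at 14.8 CPM, and one led by Spink5 had 0.38 and 17.6 CPM. A cluster led by Tgm4 and Pbsn, androgen-regulated genes of the prostate, had Tcf7 at 10.0 CPM and Tcf7l1 at 3.20 CPM. One led by Prr9 and Tcaf2 had 7.08 and 1.90 CPM. Tcf7l1 above Tcf7 in the first pair was thus reversed in the second. Over all 14 DoubleTg epithelial-like clusters, which also hold the basal-like ones with both genes, Spearman's rho between Tcf7 and Tcf7l1 was only -0.08. Single luminal-like cells at 5000 UMIs showed no separation either, with Tcf7l1 in 4.81% (1.58 to 10.9) of the 104 cells with Tcf7 and 3.35% of those without.

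Tcf7l2 also varied among DoubleTg clusters, from 22.7 CPM in the Sbp cluster to 139 CPM in a luminal-like cluster led by Gsdmc2 and Cyp2f2. Lef1 was at or under 1.22 CPM in every DoubleTg epithelial-like cluster but those of the seminal vesicle-like and the Foxi1 cells. The 50 cells led by Foxi1 and Atp6v1g3, genes of ion-transporting epithelial cells, had Lef1 at 15.3 CPM and Tcf7l1 at 16.8 CPM. Those values rest on 10 and 11 UMIs.

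In TripleTg every luminal-like cluster with more than 88 cells had Lef1 at 2.72 CPM or more and Tcf7 at 21.9 CPM or more. A cluster led by the proliferation genes Ube2c and Top2a had Lef1 at 8.06 CPM and Tcf7 at 42.9 CPM, and one led by Apoc4 and Lap3 had 11.8 and 36.3 CPM. The exception was the cluster of 88 luminal-like cells led by Reg3b, with 0 Lef1 UMIs, Tcf7 at 12.7 CPM and Axin2 at 19.9 CPM. Tcf7l1 was at or under 4.24 CPM in all TripleTg luminal-like clusters. The DoubleTg luminal-like clusters ranged from 1.71 to 17.6 CPM, so those with little Tcf7l1, the Tgm4 cluster among them, lay within the TripleTg range.

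The highest Lef1 level of any TripleTg epithelial-like cluster lay outside the luminal-like and basal-like classes. A cluster of 276 cells led by Mt4, Ptn, Gprc5d and Krt42 had Lef1 at 24.8 CPM (21.3 to 28.7), Tcf7 at 34.6 CPM and Tcf4 at 189 CPM. A second one, of 724 cells led by Tchh, Krt73 and Rptn, had Lef1 at 13.5 CPM and the lowest Tcf7l1 level of the TripleTg epithelial-like clusters, 0.675 CPM. Krt73 and Tchh are known from the hair follicle, where Lef1 is also expressed, and no marker list fixed for the cell classes covers such cells. Both clusters were kept out of the luminal-like and basal-like classes by leading genes chosen after the clusters were seen. These cells therefore carry no class name beyond epithelial-like.

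Across the 13 TripleTg epithelial-like clusters Lef1 ran with Axin2, with a Spearman's rho of 0.92, and Tcf7 with Tcf4, with 0.90. Lef1 with Tcf7 gave 0.67 and Lef1 with Tcf7l1 gave -0.49. In the 14 DoubleTg clusters Tcf7l1 with Tcf4 gave 0.785 and Tcf7 with Axin2 gave 0.78, and Lef1 with Axin2 gave only 0.32. Clusters of 1 library share its preparation and free RNA and are not independent samples, so these values are descriptions.

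**Figure D3:**
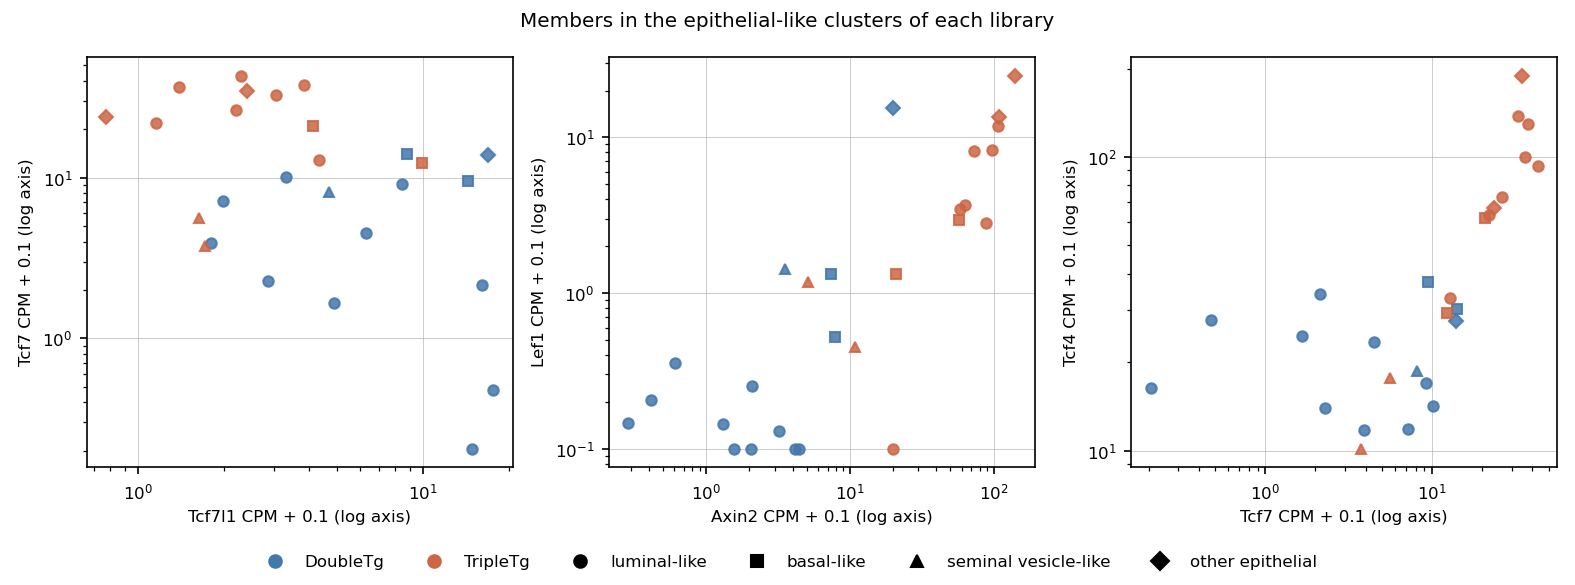
Levels of pairs of genes in epithelial-like clusters, in CPM plus 0.1 on log axes, coloured by library and with a marker shape for each class. The panels show Tcf7l1 against Tcf7, Axin2 against Lef1 and Tcf7 against Tcf4, and TripleTg clusters lie towards higher Lef1 and Axin2, with a rho of 0.92 over 13 clusters.

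Endothelial-like cells, 276 in DoubleTg and 246 in TripleTg, had a pattern of their own. Of the 5 members, 2 were higher, against 13.5% of 9852 genes, and 0 were lower, against 8.03%. Lef1 had 9 UMIs in 9 DoubleTg cells, 4.05 CPM (1.85 to 7.69), and 89 UMIs in 52 TripleTg cells, 34.3 CPM (27.5 to 42.2). Its log2 ratio was 3.08 (2.09 to 4.26). The TripleTg endothelial-like level was above the 6.85 CPM of the epithelial-like cells of the same library.

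Tcf7 in endothelial-like cells had 8 UMIs at 3.60 CPM in DoubleTg and 54 UMIs at 20.8 CPM in TripleTg, a log2 ratio of 2.53 (1.45 to 3.81). That TripleTg level was below the 26.4 CPM of the epithelial-like cells. Without the cells that had an Epcam UMI, which left 164 of 276 DoubleTg and 115 of 246 TripleTg cells, and under the other alternatives run for this class, the Lef1 ratio was 2.92 to 3.56 and the Tcf7 ratio 2.2 to 2.78. Without those cells, and also after thinning, only 3 DoubleTg UMIs of each gene were left. The intervals without those cells were wide, 1.88 to 5.91 for Lef1 and 0.90 to 5.11 for Tcf7. Axin2 was at 1.35 CPM (3 UMIs) in DoubleTg and 17.3 CPM in TripleTg endothelial-like cells. It was also higher in TripleTg macrophage-like cells, at 1.36 (7 UMIs) and 9.44 CPM, and smooth muscle-like cells, at 6.82 (5 UMIs) and 25.2 CPM. In fibroblast-like cells as named here Axin2 was level, at 12.9 and 13.5 CPM, a log2 ratio of 0.07 (-0.60 to 0.685). The part of epithelial RNA in these Axin2 and Tcf7 values was not tested.

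Tcf4 reached its highest level of all classes in the endothelial-like cells, 1664 CPM (1610 to 1718) in DoubleTg and 968.1 CPM (930.6 to 1007) in TripleTg. It was seen in 97.5% and 92.6% of these cells at 5000 UMIs. The gene lies at chr18:69343356-69689079 on the plus strand of GRCm38. The log2 ratio of -0.78 (-0.86 to -0.71) had the opposite sign to that in the epithelial-like cells. Tcf7l1 was at 22.9 and 17.3 CPM and Tcf7l2 at 76.5 and 63.2 CPM, with ratios whose intervals include 0 (-1.02 to 0.20 and -0.59 to 0.04), and both turned positive without the cells with an Epcam UMI, at 0.19 and 0.44.

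Fibroblast-like cells were 963 in DoubleTg and 154 in TripleTg, and their clusters differed so much that the library difference is hard to read. In DoubleTg, Lef1 lay almost wholly in 1 of the 2 fibroblast-like clusters. The cluster led by Wif1, a secreted Wnt inhibitor, and Acta2 had 116 Lef1 UMIs at 22.6 CPM (18.7 to 27.1), whereas the cluster led by Sult1e1 and Lum had 2 UMIs at 0.42 CPM. Tcf4 was at 224 and 63.9 CPM in the same clusters, and Tcf7 at 13.3 and 5.70 CPM. Tcf7l1 and Tcf7l2 differed less, at 23.6 and 16.7 CPM and at 51.5 and 57.2 CPM.

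The TripleTg fibroblast-like cells were a single cluster led by Col3a1, Mfap5 and Pi16, with Lef1 at 3.63 CPM from 7 UMIs, Tcf4 at 74.1 CPM and Tcf7l2 at 58.1 CPM. Over the whole class the log2 ratio was -1.72 (-3.07 to -0.63) for Lef1 and -0.99 (-1.25 to -0.74) for Tcf4. No TripleTg cluster named fibroblast-like was led by Wif1 and Acta2. A TripleTg cluster of 501 cells led by Apod, Igfbp6 and Matn2, with all 7 fibroblast markers raised, had Lef1 at 14.5 CPM and Tcf4 at 363 CPM, and was left unnamed for its low depth and because none of those markers was among its top 10 genes. With it counted as fibroblast-like (655 cells), Lef1 was at 10.8 CPM, a log2 ratio of -0.15 (-0.62 to 0.31), and Tcf4 at 264.3 CPM, a ratio of 0.85 (0.74 to 0.95). The low Lef1 and Tcf4 values of the TripleTg class therefore depend on which cells are named fibroblast-like.

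Smooth muscle-like cells were few, 65 and 98, and had high Tcf4, at 188.2 and 245.8 CPM. Tcf7l2 was at 64.1 and 78.9 CPM and Tcf7l1 at 17.7 and 15.9 CPM. Tcf7 had 2 and 15 UMIs and Lef1 1 and 4, too few for a ratio to be read. Stromal and endothelial classes were thus alike in holding more Tcf7l1 and more Tcf4 than luminal-like cells of the same library, Tcf7l1 in 6 of 6 comparisons and Tcf4 in 5 of 6, all but the TripleTg fibroblast-like cells as named here.

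Macrophage-like cells, 496 and 429, held Tcf7l2 and little of the other TCF/LEF genes, and also held the E protein gene Tcf4. Only these 2 members passed the minimum, and neither was past the threshold (9.27% of 9167 genes were higher and 9.75% lower). Tcf7l2 made up 89.6% and 81.8% of the UMIs of the 4 TCF/LEF genes, at 38.4 and 22.0 CPM. Its log2 ratio of -0.80 (-1.15 to -0.46) rested on a shallow DoubleTg cluster of 222 cells with Epcam at 1487 CPM, and was -0.04 without it. Tcf4 was at 136.2 and 126.3 CPM, with a ratio of -0.11 (-0.27 to 0.05), which was -0.52 without that cluster. The dendritic-like cells, 96 and 47, had 0 Lef1 UMIs in both libraries, Tcf7l2 at 24.6 and 32.8 CPM and Tcf4 at 94.95 and 96.63 CPM.

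The lymphocytes of DoubleTg had the composition of the TCF/LEF genes that T cells are known for. In the 439 T and NK-like cells Tcf7 was at 26.0 CPM (21.2 to 31.6) and Lef1 at 12.8 CPM (9.43 to 16.9), and together they were 63.1% of the UMIs of the 4 genes. Tcf7l2 was at 19.3 CPM and Tcf7l1 at 3.38 CPM. At 5000 UMIs 14 of the 28 cells with Lef1 (50%, 30.7 to 69.4) also had Tcf7, against 9.80% (6.71 to 13.7) of those without. Since Epcam stood at 695.9 CPM in these cells, epithelial RNA was counted in them too, and its part in the Tcf7l2 and Tcf7l1 levels was not tested.

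In DoubleTg, Tcf7 was higher in the T and NK-like cells that carried Il7r or S1pr1, genes of resting and recirculating T cells, and lower in those that carried Gzmb, a gene of killing. Tcf7 was at 48.3 CPM (36.0 to 63.5) in the 138 cells with Il7r, the receptor for interleukin 7, and at 17.6 CPM in the others. In the 47 cells with S1pr1, needed for T cells to leave tissue, it was at 83.3 CPM (54.4 to 122.0), against 21.0 CPM (16.5 to 26.3). In the 168 cells with Gzmb, a granzyme of cytotoxic cells, it was at 6.34 CPM (3.16 to 11.3), against 42.2 CPM (33.9 to 52.0). Both directions are thus seen within 1 library and 1 cluster.

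With Prf1, the gene for perforin, Tcf7 was at 5.30 CPM in 48 cells, against 28.3 CPM, and with Ncr1, an NK cell receptor, at 8.93 CPM in 32 cells, against 27.7 CPM. The Prf1 and Ncr1 values of Tcf7 rest on 2 and 3 UMIs, and Lef1 did not differ beyond counting error with Prf1, at 10.6 CPM (2.89 to 27.2) against 12.98 CPM (9.47 to 17.4). Lef1 had the direction of Tcf7 for Il7r, with 28.4 CPM (19.2 to 40.6) against 6.81 CPM (4.10 to 10.6), and for Gzmb, with 4.61 CPM (1.99 to 9.08) against 19.5 CPM (14.0 to 26.4). For Ccr7, a homing receptor of naive T cells, Tcf7 was at 63.4 CPM in 28 cells and 22.7 CPM in the others, whereas Lef1 was at 12.7 and 12.8 CPM. Cells with and without Cd3e differed little in Tcf7, at 26.5 and 25.1 CPM.

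**Figure D4:**
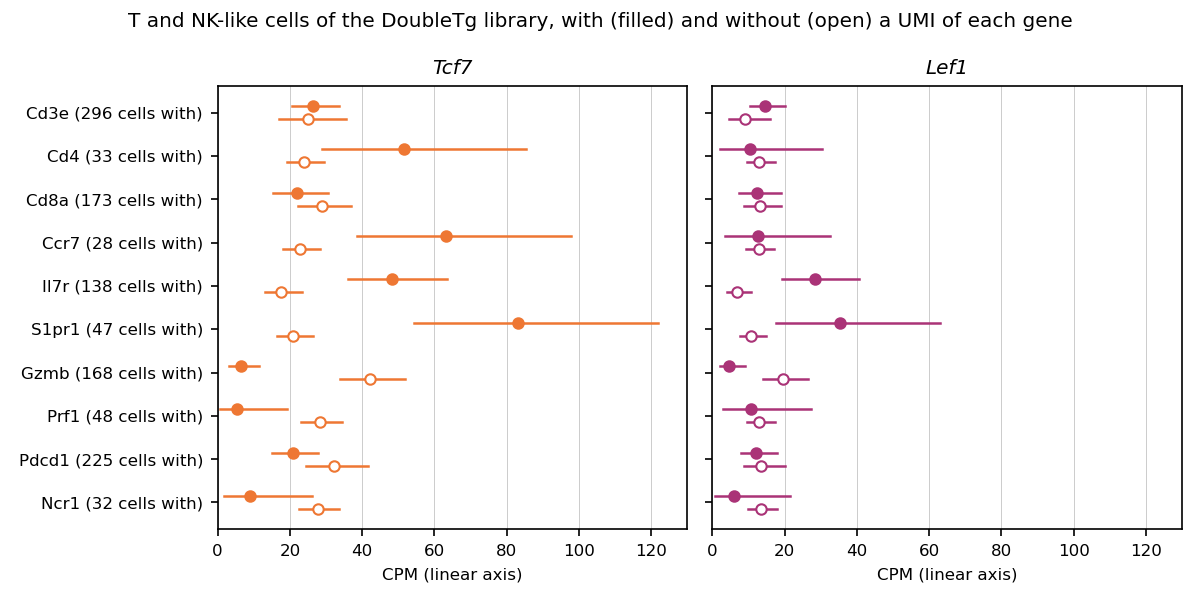
Tcf7 and Lef1 levels, in CPM with 95% Poisson intervals, in DoubleTg T and NK-like cells with (filled) and without (open) a UMI of each T cell state gene seen in at least 25 cells. Tcf7 is at 48.3 CPM with Il7r and 17.6 CPM without, and at 6.34 CPM with Gzmb and 42.2 CPM without.

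In TripleTg the T cell genes led a cluster of 137 cells, with Gzma, Ccl5, Cd3g and Nkg7 among its top 10 genes, that was also epithelial by its markers. Epcam was at 1452 CPM and Cd3e at 40.7 CPM there, against 250.2 CPM of Cd3e in the DoubleTg T and NK-like cells. Tcf7 was at 34.6 CPM and Lef1 at 16.3 CPM in this mixed cluster. It was given no class name, and lymphocytes were not compared between the libraries. TripleTg epithelial-like cells themselves had Tcf7 at 26.4 CPM, so a split by T cell state genes within this cluster cannot be read as one among T cells. As values only, Tcf7 was at 38.3 CPM (27.3 to 52.4) with Il7r and 32.6 CPM (25.1 to 41.7) without, at 23.3 CPM (12.8 to 39.1) with Gzmb and 37.5 CPM (30.1 to 46.2) without, and at 77.8 CPM (42.5 to 130.5) in the 10 cells with Prf1 and 31.8 CPM (25.5 to 39.2) without.

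The partners of the TCF/LEF proteins were described by lists. Of 10 genes for β-catenin and its co-activators, 9 passed the minimum in epithelial-like cells, and 2 of these were higher and 0 lower, with a median log2 ratio of 0.35. Bcl9, the adaptor between β-catenin and Pygo proteins, was at 7.49 and 43.8 CPM (2.55), and Tnik, a kinase that acts on TCF/LEF factors, at 11.3 and 29.9 CPM (1.40). Ctnnb1 RNA itself was at 314.4 and 224.2 CPM, a log2 ratio of -0.49, and 3′ counts do not show whether exon 3 was present. Of 20 Groucho co-repressors and other inhibitors, 16 passed, 1 was higher and 1 lower, with a median of -0.06. Sox7, which can inhibit β-catenin, was at 0.928 and 6.44 CPM (2.79), and the co-repressor Tle4 at 37.8 and 16.2 CPM (-1.23), with Tle3 at -0.97.

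All 6 E proteins and Id inhibitors besides Tcf4 passed and none was past the threshold, with a median of -0.12. Tcf12 was at 40.3 and 64.2 CPM (0.67) and Id1, which holds E proteins off DNA, at 143.3 and 82.6 CPM (-0.79). Tcf4 thus stood apart from its relatives in the size of its ratio, 2.0. Of the 10 Wnt targets outside the members, all passed, 7 were higher and 1 lower, with a median of 3.84. Nkd1 (5.55), Apcdd1 (5.42), Lgr5 (5.33), Notum (5.22) and Axin2 (4.89) had ratios close to that of Lef1, and Rnf43 (2.79) and Znrf3 (1.99) ratios close to those of Tcf7 and Tcf4. Sp5 was lower (-1.74), and Myc (-0.995) and Ccnd1 (-0.54) were below 0 without passing the threshold. These lists were drawn up with earlier results of these data known, so their counts are descriptions, to be read beside 9.59% higher and 12.0% lower among all genes.

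The genes most like each member were found over 46 clusters of both libraries by Pearson's r of log2(CPM + 10) among 10174 genes. Clusters share libraries and depth, so r is a description. For Tcf7 the nearest was Axin2, with an r of 0.88, followed by Chic2, Tfrc, Stra6 and Znrf3 down to 0.85, and 2 of these 5, Axin2 and Znrf3, are Wnt feedback genes. For Lef1 the nearest were Smim13 (0.77), Cttnbp2, Gpc1, Fbxo8 and Wnt6 (0.71), the last of these a Wnt ligand. For Tcf7l1 they were Arl4a (0.83), Dmwd, Pkd2, Pcbp4 and Maoa (0.81), and for Tcf7l2 Slc44a1 (0.90), Wasl, Plxnb2, Hes1 and Phactr4 (0.83). For Tcf4 they were Slc23a2 (0.87), Frmd4a, Prdm1, Rai14 and Sash1 (0.81). No member was among the 5 genes nearest to another.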

How the data were processed

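Single-cell RNA-seq of prostate tumour tissue was analysed from 2 libraries, 1 per genotype and so without replicates. The deposited values are UMI counts, unnormalised and whole, that the authors made with Cell Ranger (6.0.2 in the submitters' processing notes, 6.1.1 in the DoubleTg file header) from reads aligned to mm10 with the transgene sequences. Cells were kept if they had more than 200 and fewer than 7000 genes and a mitochondrial share below 15%, 10598 of 12072 in DoubleTg and all 9492 in TripleTg. The study gives the same number of filtered cells for TripleTg and a smaller one for DoubleTg. Median depth was 16761 and 20097 UMIs, and the 2171 and 1699 cells under 5000 UMIs were left out of thinned shares.

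Each library was clustered alone with scanpy 1.11.5 (2000 variable genes without the 5 members, 20 principal components, 15 neighbours, Leiden resolution 1), giving 25 and 24 clusters, of which 2 (1081 cells) and 5 (1939 cells) stayed unnamed. Classes were named from 103 markers, 3 without a feature, with naming thresholds revised after the clusters had been seen, so classes may differ from those of the study. A further list of leading genes, Tchh, Krt73, Krt42 and Foxi1 among them, was also chosen after the clusters were seen. It kept the clusters led by such genes out of the luminal-like and basal-like classes. Doublets were removed by the gene limit only, since scrublet called 266 cells (2.51%) in DoubleTg and 0 in TripleTg. UMIs were summed per class to CPM with exact Poisson intervals, shares have exact binomial (Clopper-Pearson) intervals and log2 ratios conditional binomial ones. Within the Tcf7 span the gene Gm26551 lies on the same strand, and reads they share cannot be told apart. The log2 ratios and their intervals were checked on simulated Poisson counts, which does not test clustering, class naming or thinning. TMM factors (edgeR 4.0.16) served as 1 alternative scaling, and no count test was run.

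Members, gene lists and comparisons were chosen with earlier results of these data known. Named are the 5 members, the genes of the lists, the 5 genes most correlated with each member over clusters of at least 50 cells (among genes with at least 20 CPM in a cluster), and marker or transgenes beside a member. Leading genes of clusters were named after they were seen. Promoter windows came from RefSeq for GRCm38.p6 and matched 4 of the 5 members. Tcf4 has no window shown.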

Additional observations from a re-analysis of the deposited data

Results flagged for a closer look

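Outside the epithelium, among members with at least 5 CPM, 4 log2 ratios of TripleTg over DoubleTg had the sign opposite to that in epithelial-like cells with both counting intervals on 1 side of 0, and with 1 library per genotype none of these differences was tested. Lef1 was at -1.72 in fibroblast-like cells against 5.19 in epithelial-like cells. Tcf4 was at -0.99 in fibroblast-like cells and at -0.78 in endothelial-like cells, against 2.0 in epithelial-like cells. Tcf7l2 was at -0.80 in macrophage-like cells against 0.26 in epithelial-like cells, and the value was -0.04 without a shallow DoubleTg cluster. Both fibroblast-like values rest on leaving unnamed a TripleTg cluster of 501 cells with raised fibroblast markers. With it counted, Lef1 was at -0.15, with an interval that includes 0 (-0.62 to 0.31), and Tcf4 turned to 0.85.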

How the results depend on the processing

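Each member's log2 ratio in epithelial-like cells kept its sign under all 16 alternatives run, 4 of them added after seeing the data (the top 5% of scrublet scores, the seminal vesicle-like clusters or the Aldh1a3 cluster left out, and clusters weighted equally), and Lef1, Tcf7, Tcf7l1 and Tcf4 stayed past 1. Thinning to 5000 UMIs gave 4.01 for Lef1, 2.07 for Tcf7, -1.53 for Tcf7l1 and 1.89 for Tcf4. Weighting cells equally gave 4.42, 2.13, -1.49 and 1.81 in the same order, and weighting clusters equally gave 2.21, 1.96, -1.59 and 1.81. Luminal-like cells alone gave 6.63 for Lef1, 3.12 for Tcf7, 0.38 for Tcf7l2 and 2.34 for Tcf4, and cells with an hMETtg UMI gave 6.62, 2.53, -2.01, 0.14 and 1.84 for Lef1, Tcf7, Tcf7l1, Tcf7l2 and Tcf4. Leaving out the cluster with most UMIs gave 2.64 for Tcf7, 0.33 for Tcf7l2 and 1.89 for Tcf4, and leaving out the seminal vesicle-like clusters gave 2.6, 0.39 and 2.17. Without the Aldh1a3 cluster Tcf7l1 was at -1.95, Tcf7l2 at 0.39 and Tcf4 at 1.9, and with unnamed clusters counted as epithelial-like Tcf7l1 was at -1.6 and Tcf4 at 2.1. Tcf7l2 was at 0.29 with TMM factors and 0.21 with all deposited cells. Of the UMIs of the 4 TCF/LEF genes in DoubleTg, Lef1 was 0.205%, 0.461% after thinning and 0.0696% in luminal-like cells, Tcf7 was 6.54% and 3.93%, Lef1 and Tcf7 together 7.0% and 4.0%, Tcf7l1 8.48% and 7.58%, and Tcf7l2 84.5% and 88.4%. In TripleTg Lef1 was 4.36% in luminal-like cells, Tcf7 19.8% and 21.6% and Tcf7l1 2.11% and 1.49%.

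In endothelial-like cells Tcf7l1 turned from -0.40 to 0.19 without cells with an Epcam UMI and to 0.245 after thinning, and Tcf7l2 from -0.28 to 0.435 and 0.134. The cause of these shifts was not tested. In fibroblast-like cells, under alternatives also added after seeing the data, Tcf4 turned from -0.99 to 0.847 with the unnamed TripleTg cluster counted, 0.84 at resolution 0.5 and 0.533 at resolution 2, Tcf7 turned from -0.89 to 0.517, 0.523 and 0.42, and Lef1 went from -1.72 to -0.15, -0.16 and -0.54. No paired analysis was possible because each genotype had 1 library. Leaving out called doublets could not be run for TripleTg, where scrublet called none. Depth limits Lef1, with 43 UMIs in DoubleTg epithelial-like cells, and in DoubleTg endothelial-like cells both Lef1 (9 UMIs) and Tcf7 (8).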
